A study of Homo sapiens with 8 samples.

Results

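The genes described are 10 transcription regulators of the GATA and RUNX families and their close partners, chosen by name: GATA2, GATA3, GATA4, GATA6, GATAD1, RUNX1, RUNX2, RUNX3, RUNX1T1 and CBFB. Of these, 9 had a value with both siRNAs among the 8801 genes of the authors' deposited tables, and RUNX2 is not analysed here. The cells were HEK293T, a human embryonic kidney line, in 4 groups of 1 library each: Pcif1-KO with siPCF11, WT with siPCF11, Pcif1-KO with siScram and WT with siScram. All 4 received 5 pmol of siRNA 48 h before harvest, and all 4 were nuclear RNA, labelled with the uridine analogue s4U to mark nascent transcripts and read from the 3′ end of mRNA. PCIF1 writes m6Am, the methyl mark on an adenosine that starts an mRNA next to its cap, PCF11 is a cleavage factor that also helps to end transcription, and siScram is the scrambled control. The sources used here do not say whether the Pcif1-KO line is 1 clone. The remaining 4 libraries of the series, in which Pcif1-KO cells overexpressed EGFP, PCIF1-CD or PCIF1-WT, are not used here.

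GATA factors bind DNA through zinc fingers that read a GATA core, and different family members steer blood, heart, endoderm, kidney duct and placental cells. RUNX factors bind DNA through a Runt domain, and CBFB, which does not touch DNA itself, joins them as the second chain of core binding factor and strengthens that binding. RUNX1T1 is not a RUNX factor but a corepressor of the ETO family, named for its fusion with RUNX1 in acute myeloid leukaemia.

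Each value below is a log2 ratio, WT over Pcif1-KO, as the authors deposited it, so that a value below 0 means more RNA in Pcif1-KO cells than in WT cells. With 1 library per group there was no replicate check, and as these genes were chosen with their ratios known, no test was made of them. The only spread the files give is that between the ratios of 1 gene with siPCF11 and with siScram, whose difference had an SD of 0.40 over 7591 genes and holds the effect of the siRNA together with noise. The read depth behind a ratio is unknown, and so is whether only labelled reads were counted. A shift of the cleavage site between the genotypes could also change a 3′ end ratio, and was not tested. In bulk RNA, less RNA per cell and fewer cells that make it cannot be told apart. The genotype could not be checked on PCIF1 RNA, which is not analysed here.

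The 4 GATA factors were higher in Pcif1-KO than in WT cells with both siRNAs, 2 of them by more than 2-fold. RUNX1, RUNX3 and CBFB went the other way and were lower in Pcif1-KO cells with both siRNAs, while RUNX1T1 was more than 2-fold higher and GATAD1 lay near 0. GATA2 and GATA4 with both siRNAs, and RUNX1 and CBFB with siPCF11, were no further from 0 than 0.28. This is a spread of 1 ratio derived from the difference between siRNAs, so those directions are not sure. All 9 genes had the same sign with both siRNAs, against 61.7% of the 7591 genes with both ratios. With siPCF11, 3 of the 9 genes lay beyond 1 in either direction, against a background of 1.49% of 8499 genes. All 3 were below -1, where 0.659% of genes lay, and none was above 1, where 0.835% lay. With siScram, 4 of the 9 were beyond 1, against a background of 0.912% of 7893 genes. There 3 were below -1 (background 0.519%) and 1 was above 1 (background 0.393%). Since the choice of these genes followed from such values, the shares describe them and support nothing further. The median of the 9 genes was -0.20 with siPCF11 and -0.14 with siScram, against medians of -0.010 and -0.0096 over all genes.

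**Figure D1:**
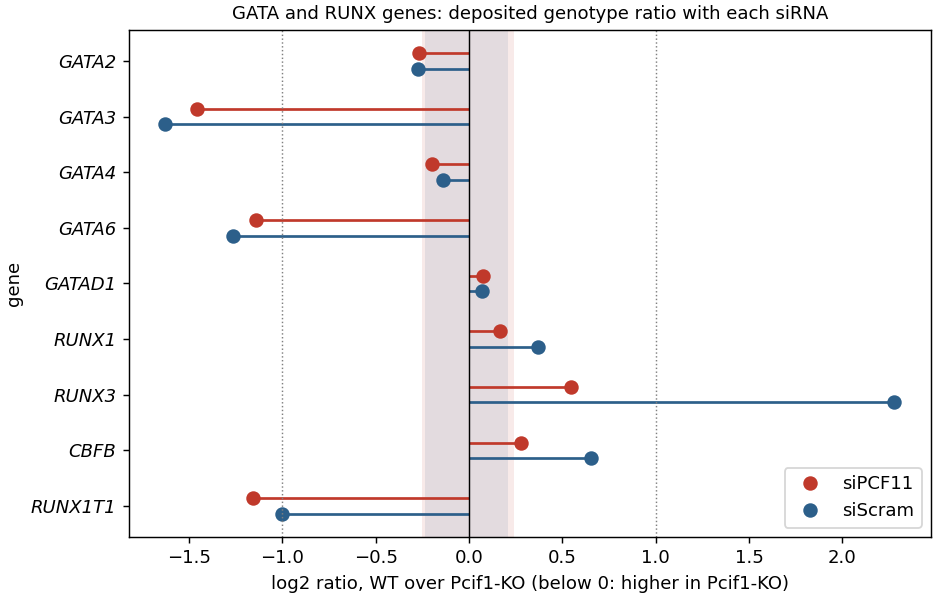
Log2 ratio of WT over Pcif1-KO (x axis) for each of the 9 genes, with siPCF11 in red and siScram in blue, 1 library per genotype and siRNA. Shaded bands hold the middle 50% of all genes and dotted lines stand at -1 and 1. GATA3, GATA6 and RUNX1T1 lie left of -1 with both siRNAs, and RUNX3 lies right of 1 with siScram only.

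GATA3, a master factor of T helper type 2 cells that also acts in the nephric duct, in breast epithelium and in trophoblast, stood furthest to the Pcif1-KO side. In the authors' deposited tables GATA3 (ENSG00000107485.16, GRCh38 chromosome 10, 8045333 to 8075198) had a ratio of -1.46 with siPCF11 and of -1.63 with siScram. These equal 2.74-fold and 3.09-fold more RNA in Pcif1-KO than in WT cells. It ranked lowest of the 4516 long genes with siScram and the 6th lowest of the 5150 long genes with siPCF11, where "long" is the authors' own class. Over long and short genes together it was the 5th lowest with siScram and the 16th lowest with siPCF11. The ratio with siPCF11 was higher than that with siScram by 0.17, less than the spread between siRNAs.

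GATA6, a factor of endoderm and heart development, was the second gene of the family with a large ratio. The authors' deposited tables gave GATA6 (ENSG00000141448.8, GRCh38 chromosome 18, 22169589 to 22202528) a ratio of -1.14 with siPCF11 and of -1.26 with siScram, or 2.2-fold and 2.4-fold more RNA in Pcif1-KO cells. With siScram it was the 2nd lowest long gene, next to GATA3, and with siPCF11 the 16th lowest. Among all genes GATA6 was the 9th lowest with siScram and the 37th lowest with siPCF11.

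GATA4, which shares many heart and endoderm roles with GATA6, did not follow it in size. Its deposited ratios in the authors' deposited tables were -0.20 with siPCF11 and -0.14 with siScram (ENSG00000136574.17, GRCh38 chromosome 8, 11676935 to 11760002). Both lie within the middle 50% of all genes, which ran from -0.25 to 0.24 with siPCF11 and from -0.23 to 0.21 with siScram. GATA2, a factor of blood stem cells and of the endothelium, had nearly equal ratios of -0.27 with siPCF11 and -0.27 with siScram in the authors' deposited tables (ENSG00000179348.11, GRCh38 chromosome 3, 128479422 to 128493201). It lay just outside that middle range on the Pcif1-KO side. The 4 GATA factors together had medians of -0.70 with siPCF11 and -0.77 with siScram. These medians fall in the gap between GATA3 and GATA6 and the smaller ratios of GATA2 and GATA4, so no member lay near them.

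GATAD1 carries a GATA-type zinc finger and is found with histone H3 trimethylated at lysine 4 rather than acting as a lineage factor. It was at 0.07 with both siRNAs in the authors' deposited tables (ENSG00000157259.7, GRCh38 chromosome 7, 92447482 to 92495769), and its 2 ratios differed by 0.0023. TRPS1, an atypical GATA factor that represses transcription and was listed here only as a relative, was at -0.44 with siPCF11 and 0.11 with siScram in the authors' deposited tables. Of the 7 factors with a GATA zinc finger on the family list, which counts TRPS1 but not GATAD1, 5 had a ratio and GATA1 and GATA5 are not analysed here. The medians of these 5 were -0.44 with siPCF11 and -0.27 with siScram.

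RUNX3, a factor of cytotoxic T cells and of sensory neurons, had the highest ratio of all genes with siScram but not with siPCF11. In the authors' deposited tables RUNX3 (ENSG00000020633.18, GRCh38 chromosome 1, 24899511 to 24965138) was at 0.55 with siPCF11 and at 2.28 with siScram. Its RNA was thus 1.46-fold lower in Pcif1-KO than in WT cells with siPCF11 and 4.85-fold lower with siScram. The difference between the siRNAs, -1.73, was several times the SD of 0.40 and the 3rd largest in size of 7591 genes, after AKAP8L at 1.93 and UBE2Q2 at -1.80. A difference beyond 1 was found in 1 of the 9 genes, against a background of 1.21% of the 7591. With siPCF11 it was the 594th highest of 8499 genes. A smaller ratio with siPCF11 was not particular to RUNX3, as 12 of the 31 genes above 1 with siScram, RUNX3 among them, had a siPCF11 ratio under 50% of their siScram ratio.

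CBFB, the partner chain, was also on the WT side. The authors' deposited tables gave CBFB (ENSG00000067955.13, GRCh38 chromosome 16, 67029149 to 67101058) ratios of 0.28 with siPCF11 and 0.65 with siScram, or 1.21-fold and 1.57-fold lower RNA in Pcif1-KO cells. RUNX1, required for the first definitive blood stem cells, was at 0.17 with siPCF11 and 0.37 with siScram in the authors' deposited tables (ENSG00000159216.18, GRCh38 chromosome 21, 34787801 to 35049302). For the 3 subunit genes of core binding factor that had a ratio, it was thus nearer 0 with siPCF11 than with siScram. The gap was 0.37 for CBFB and 0.20 for RUNX1, which are both under the SD of 0.40.

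RUNX1T1, the corepressor, lay with the GATA factors and not with the RUNX factors. In the authors' deposited tables RUNX1T1 (ENSG00000079102.16, GRCh38 chromosome 8, 91954967 to 92103385) had ratios of -1.16 with siPCF11 and -1.002 with siScram, the second just past -1. That is 2.2-fold and 2.0-fold more RNA in Pcif1-KO cells. It was the 14th lowest long gene with either siRNA, and of all genes the 34th lowest with siPCF11 and the 41st lowest with siScram.

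Placed in order, the genes fell into few steps larger than the SD of 0.40. With siPCF11 the order from the Pcif1-KO side was GATA3, RUNX1T1, GATA6, GATA2, GATA4, GATAD1, RUNX1, CBFB and RUNX3, and 1 of the 8 steps, the 0.87 between GATA6 and GATA2, was larger. With siScram GATA6 came before RUNX1T1 and the rest kept their places. There 2 of the 8 steps were larger, 0.73 between RUNX1T1 and GATA2 and 1.63 between CBFB and RUNX3. Other neighbours in either order did not differ beyond that spread.

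Below -1 with both siRNAs were 14 of 7591 genes, or 0.184%, and GATA3, GATA6 and RUNX1T1 were 3 of these 14. Above 1 with both siRNAs were another 14 genes, none of them among the 9. The plot of all genes places GATA3, GATA6 and RUNX1T1 near the line of equal ratios and RUNX3 far below it.

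**Figure D2:**
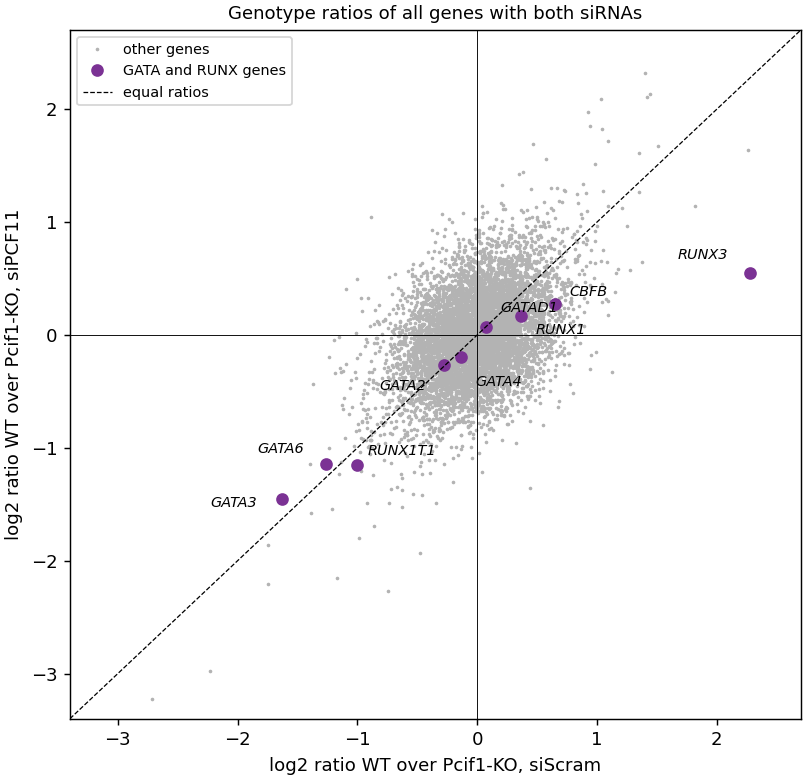
Log2 ratio of WT over Pcif1-KO with siPCF11 (y axis) and with siScram (x axis) for 7591 genes (grey) and the 9 GATA and RUNX genes (purple), 1 library per genotype and siRNA. RUNX3, at 0.55 with siPCF11 and 2.28 with siScram, stands furthest right, below the dashed line of equal ratios, while GATA3, at -1.46 and -1.63, lies close to it.

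The genes most like each of the 4 large members were sought as those with the smallest Euclidean distance between pairs of ratios, over 2 ratios per gene and so as a description only. Nearest to GATA6 were the homeobox factor ISL1, itself a factor of heart progenitors, at a distance of 0.13, then the endoplasmic reticulum chaperone HYOU1 at 0.13 and the mannose-activating enzyme subunit GMPPB at 0.14. ISL1 had ratios of -1.12 with siPCF11 and -1.14 with siScram in the authors' deposited tables, and it was also the 3rd nearest gene to RUNX1T1, after HYLS1 at 0.061 and SLC35C1 at 0.12. Nearest to GATA3 were the peptide hormone gene ADM at 0.27, HYOU1 at 0.39 and the protocadherin gene PCDH7 at 0.42. RUNX3 had no close neighbour, with the glucocorticoid-induced TSC22D3 at 0.76, the cyclin gene CCND1 at 0.91 and the kinase gene STK35 at 0.998.

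Neighbouring genes can share a shift between 2 lines, so each gene was set beside the measured genes that start within 5 Mb of it. A gene near either end of the ranking of all genes lies beyond nearly any set of neighbours. For GATA3, GATA6 and RUNX1T1, and for RUNX3 with siScram, these counts thus largely restate the ranks given above. GATA3 lay below every one of its 23 neighbours with siPCF11 and of its 22 with siScram, whose medians were -0.11 and -0.0019. The gene before it, TAF3, a subunit of the general factor TFIID, ends 28.7 kb away and was at -0.21 with siPCF11 and -0.07 with siScram in the authors' deposited tables. The next measured gene after it, CELF2, which encodes a splicing regulator, starts 2387 kb away and was at 0.04 with siPCF11 and 0.14 with siScram in the authors' deposited tables. Neither flanking gene shared the ratio of GATA3.

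GATA6 lies in a stretch that was itself on the Pcif1-KO side, with a median of -0.23 over 16 neighbours with siPCF11 and -0.21 over 16 with siScram. It was below all 16 with siScram and below 15 of 16 with siPCF11, where the zinc finger gene ZNF521 was lower, at -1.21 in the authors' deposited tables. With siScram, ZNF521 was the highest of the 16, at 0.04 in the authors' deposited tables. The flanking genes were the ubiquitin ligase gene MIB1, at -0.11 with siPCF11 and -0.37 with siScram, and the DNA end resection gene RBBP8, at 0.14 and 0.0098, in the authors' deposited tables. Less the median of the other genes of its 10 Mb window, GATA6 was at -0.88 with siPCF11 and -1.03 with siScram. RUNX1T1 was below all 17 of its neighbours with siPCF11 (median -0.19) and all 13 with siScram (median 0.0064), and less its window median it was at -0.96 with siPCF11 and -0.94 with siScram. GATA3 less its window median stayed at -1.37 with siPCF11 and -1.60 with siScram.

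RUNX3 lies in a stretch of chromosome 1 that was on the WT side, with a median of 0.31 over 79 neighbours with siPCF11 and 0.25 over 78 with siScram. It exceeded 60 of the 79 with siPCF11 and all 78 with siScram, where its place as the highest of all genes fixed the count. Less the window median it was at 0.24 with siPCF11 and 2.03 with siScram, so that with siPCF11 it was within the range of its region and with siScram it was not. CLIC4, a chloride channel protein gene that ends 55.2 kb before it, was at 0.22 with siPCF11 and 0.48 with siScram in the authors' deposited tables. SYF2, a splicing factor gene 257.1 kb after it, was at 0.24 with siPCF11 and 0.33 with siScram in the authors' deposited tables.

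**Figure D3:**
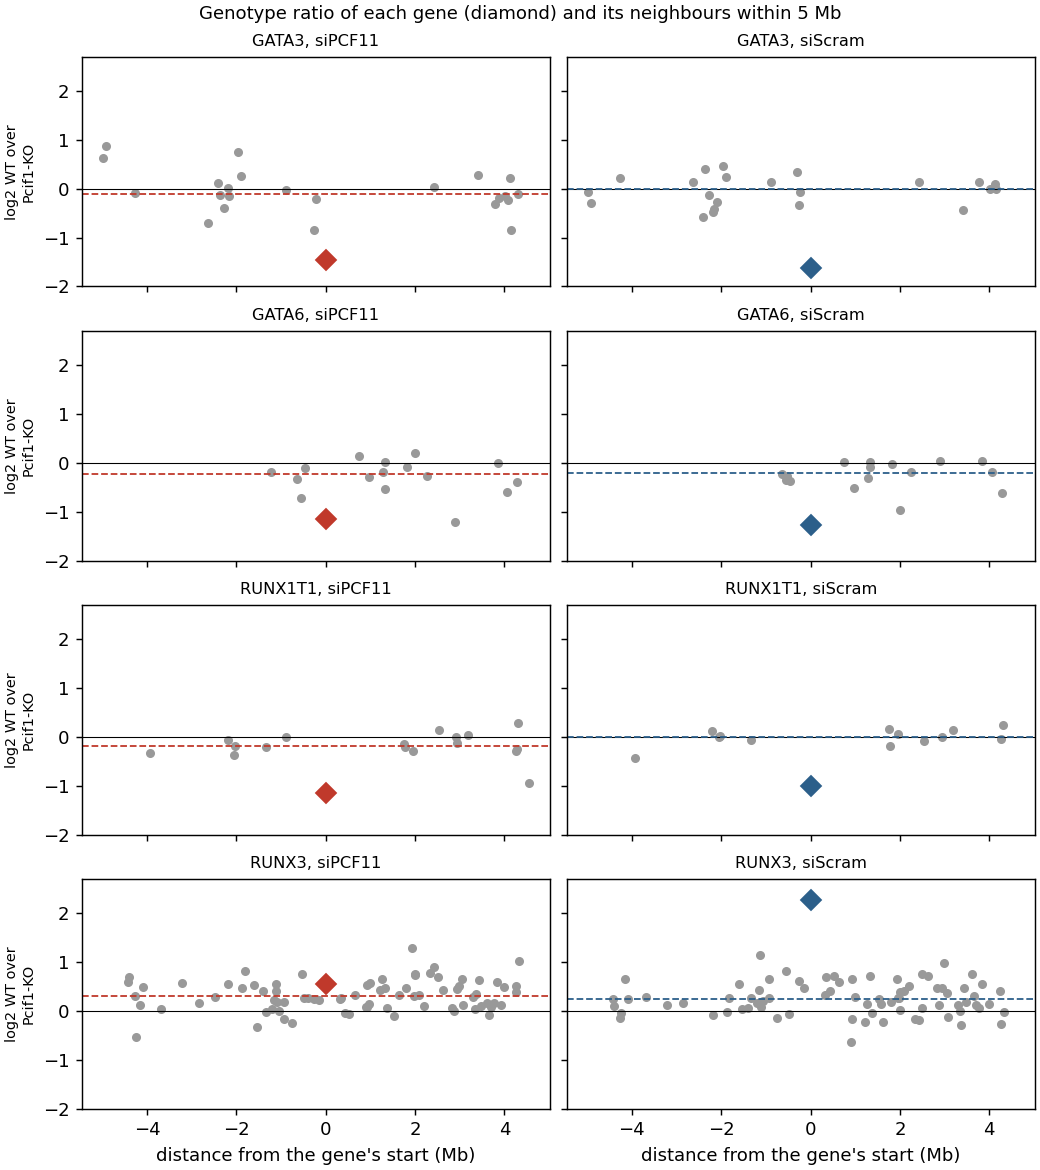
Log2 ratio of WT over Pcif1-KO (y axis) against the distance in Mb from the start of GATA3, GATA6, RUNX1T1 or RUNX3 (x axis), with siPCF11 on the left and siScram on the right. Diamonds are the named gene, grey points its neighbours and dashed lines their median. GATA3 and RUNX1T1 lie below every neighbour with both siRNAs, and RUNX3 is above all of its 78 neighbours with siScram but among them with siPCF11. RUNX3 was the highest of all genes with siScram, so its place above those neighbours was fixed.

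Less the window median, the remaining 5 genes lay between -0.33 and 0.56. With siPCF11, GATA2 at -0.33 was further from its region than RUNX3. CBFB exceeded 44 of 60 neighbours with siPCF11 and all 60 with siScram, and less its window median was at 0.16 with siPCF11 and 0.56 with siScram. RUNX1, on chromosome 21 with chromosome medians of 0.15 with siPCF11 and 0.19 with siScram, was at 0.08 and 0.22 less its window median. GATA2 was below 32 of 34 neighbours with siPCF11 and 23 of 32 with siScram, GATA4 below 12 of 13 and 8 of 14, and GATAD1 above 15 of 21 and 9 of 16.

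The measured genes flanking RUNX1T1 and these 5 genes mostly had small ratios, none of them beyond 1. Of all genes, only 1.49% lay beyond 1 with siPCF11 and 0.912% with siScram. Beside CBFB, CES3 was at -0.54 with siPCF11 and -0.06 with siScram and PHAF1 at 0.31 and 0.15 in the authors' deposited tables. RUNX1 lies between RCAN1, an inhibitor of calcineurin, at 0.09 with siPCF11 and 0.13 with siScram, and SETD4 at 0.51 and 0.15 in the authors' deposited tables. RUNX1T1 lies between OTUD6B, at -0.0016 with siPCF11 and with no siScram ratio, and CIBAR1, at -0.14 with siPCF11 and 0.17 with siScram in the authors' deposited tables. GATA2 lies between the selenocysteine elongation factor gene EEFSEC, at 0.29 with siPCF11 and -0.55 with siScram, and RPN1, a subunit of the oligosaccharyltransferase, at -0.23 and 0.06 in the authors' deposited tables. GATA4 lies between MTMR9, at -0.09 with siPCF11 and 0.10 with siScram, and the DNA glycosylase gene NEIL2, at 0.28 and 0.08 in the authors' deposited tables. GATAD1 lies between KRIT1, at -0.58 with siPCF11 and 0.17 with siScram, and RBM48, at -0.76 and -0.29 in the authors' deposited tables. It was above both of them with siPCF11.

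RefSeq places the antisense genes GATA2-AS1, GATA3-AS1, RUNX1-AS1 and RUNX3-AS1 over their partners. None of these 4 had a listed ratio. The sources used here do not say whether counting used strand, and without it reads of a gene and of its antisense partner cannot be told apart.

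By the authors' classes, 7 of the 9 genes were long and GATA2 and GATAD1 were short. The class does not follow the RefSeq span alone, since GATAD1 spans 48.3 kb and GATA3, a long gene, 29.9 kb. Of 3482 short genes with a RefSeq span, 198 (5.69%) were at least as wide as GATAD1. GATA6 was the only one of the 9 in the m6Am class, against 48.8% of all genes and 41.0% of long genes. GATA3, in the non-m6Am class, and GATA6, in the m6Am class, thus had ratios of the same sign and like size. Medians of long m6Am genes were 0.015 with siPCF11 and 0.023 with siScram, and those of long non-m6Am genes -0.059 and -0.0095. The ratios of GATA3 and GATA6 lay far from the median of either class. As both were chosen with their ratios known, this says nothing of how the class bears on a ratio.

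As m6Am needs an adenosine as the first base of the transcript, the starts that RefSeq lists were read for these genes. The stretches below are shown to let this first base be compared between GATA6, the m6Am gene, and 3 non-m6Am genes. These are GATA3 and RUNX3, the non-m6Am genes beyond 1 that have a listed start, and RUNX1. Each runs 5′ to 3′ on the gene's own strand over 60 bases before the start, with the first transcribed base in a capital letter, in RefSeq on GRCh38.p14.
GATA6, chr18:22169529-22169589, plus strand: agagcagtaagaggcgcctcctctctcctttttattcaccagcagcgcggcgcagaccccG
GATA3, first of 6 starts, chr10:8045273-8045333, plus strand: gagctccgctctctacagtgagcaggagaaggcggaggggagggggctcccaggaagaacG
RUNX3, outer start, chr1:24965010-24965070, minus strand: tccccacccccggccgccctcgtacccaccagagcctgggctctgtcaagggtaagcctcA
RUNX3, inner start, chr1:24930276-24930336, minus strand: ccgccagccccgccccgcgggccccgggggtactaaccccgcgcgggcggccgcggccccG
RUNX1, its 1 listed start, chr21:34888699-34888759, minus strand: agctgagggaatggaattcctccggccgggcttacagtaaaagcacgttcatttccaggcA
The single start listed for GATA6 has G as its first base although the authors placed the gene in the m6Am class, while the outer start of RUNX3 and the listed start of RUNX1 have A although both genes are in the non-m6Am class. That entry of RUNX1 is an inner start, 160.6 kb inside the 5′ end of the RefSeq gene. Of the listed starts not shown, the second and sixth of GATA3 and the second of GATA2 have A as first base. The other starts not shown, of GATA3, GATA2 and GATAD1, have C or G. Which start was used in these cells was not measured. Over all genes with a ratio and a promoter entry, the first listed start had A in 1804 of 3637 m6Am genes (49.6%) and in 1455 of 3658 non-m6Am genes (39.8%). Of the 13 starts listed for 6 of the 9 genes, 5 had A.

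The same entries, 250 bases before to 50 after each start, were searched on both strands for GATAA and for TGTGGT, letters within the cores that GATA and RUNX factors read. TGTGGT was found 2 times at the outer start of RUNX3, both on the opposite strand, and 1 time at the third start of GATA3. GATAA was found 1 time, at the sixth start of GATA3. Of 35116 starts of the same length in RefSeq, 22.7% held GATAA and 13.1% held TGTGGT. At the first listed start of the 7295 genes with a ratio and an entry, the shares were 12.4% and 8.64%. A match describes the letters only.

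Partners and lineage relatives were described from lists. GATA cofactors, the NuRD complex, the SIN3 and KDM5 complex and RUNX partners and corepressors together held no gene beyond 1 with either siRNA. Beyond 1 lay 1.49% of all genes with siPCF11 and 0.912% with siScram, so lists of this size would hold few or none. Of 14 GATA cofactors 7 were measured, with medians of 0.14 with siPCF11 (5 above 0, 2 below) and -0.11 with siScram (3 above, 4 below). The siScram median turned to 0.13 after window medians were subtracted, and the siPCF11 median was 0.036 after chromosome medians were. ZFPM1, or FOG1, the classical partner of GATA factors, was at 0.25 with siPCF11 and -0.52 with siScram in the authors' deposited tables. MED1, the Mediator subunit through which GATA factors recruit the complex, was at -0.88 with siPCF11 and -0.40 with siScram in the authors' deposited tables. The acetyltransferase gene EP300, nearest the siScram median of its list, was at 0.14 with siPCF11 and -0.11 with siScram, and LMO4, a LIM-only adaptor, was highest with siScram at 0.22 in the authors' deposited tables.

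NuRD, a nucleosome remodelling and deacetylase complex that holds the GATA zinc finger proteins GATAD2A and GATAD2B, had 13 of 15 genes measured, with medians of 0.0025 with siPCF11 and -0.03 with siScram. GATAD2A was at 0.31 with siPCF11 and 0.35 with siScram and was the highest of the list with siScram in the authors' deposited tables. MTA2 was lowest at -0.45 with siPCF11 and -0.61 with siScram in the authors' deposited tables, and the deacetylase gene HDAC2, nearest the siScram median, was at -0.28 and -0.03. For SIN3 and KDM5, chromatin corepressors, 15 of 16 genes were measured, with medians of -0.24 with siPCF11 and -0.06 with siScram. In that list SUDS3 was lowest with siScram at -0.32, SAP30 nearest the median at -0.06 and ARID4B highest at 0.23 in the authors' deposited tables. After window medians were subtracted, the siPCF11 medians were 0.12 for NuRD and -0.13 for SIN3 and KDM5.

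RUNX partners and corepressors had 20 of 23 genes measured, with medians of 0.16 with siPCF11 (13 above 0, 7 below) and 0.11 with siScram (12 above, 8 below). HIPK2, a kinase that phosphorylates RUNX1, was at -0.51 with siPCF11 and -0.79 with siScram in the authors' deposited tables. TLE1, a Groucho corepressor, was at 0.31 with both siRNAs in the authors' deposited tables. The methyltransferase gene PRMT1, nearest the siScram median, was at 0.74 with siPCF11 and 0.11 with siScram in the authors' deposited tables. CBFA2T2, the measured relative of RUNX1T1 in the ETO family, was at 0.25 with siPCF11 and 0.18 with siScram in the authors' deposited tables, on the other side of 0 from RUNX1T1. Less window medians, the siPCF11 median of the list was 0.045.

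Lineage lists were chosen for the tissues in which GATA and RUNX factors act. Kidney and nephric factors, of which 12 of 19 had a ratio with siPCF11 and 10 with siScram, had medians of -0.34 and -0.09. TFCP2L1, a factor of the distal tubule and collecting duct, was at -0.61 with siPCF11 and -0.63 with siScram in the authors' deposited tables. WT1, needed for the podocyte, was highest with siScram at 0.56 and at 0.04 with siPCF11, and EYA3 was nearest the siScram median at -0.11, with 0.13 with siPCF11, in the authors' deposited tables. Endoderm and heart factors had medians of 0.02 over 14 genes with siPCF11 and -0.07 over 13 with siScram. ISL1 was the only gene of the 4 lineage lists beyond 1 with either siRNA. The backgrounds beyond 1 were 1.49% of all genes with siPCF11 and 0.912% with siScram. FOXA1, an endoderm pioneer factor, was at 0.14 with siPCF11 and 0.31 with siScram in the authors' deposited tables. Less window medians, the siPCF11 median of that list turned to -0.069. HHEX, nearest the siScram median of the list, was at 0.60 with siPCF11 and -0.07 with siScram in the authors' deposited tables.

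Haematopoietic factors had medians of 0.05 over 8 genes with siPCF11 and -0.15 over 9 with siScram, and the siPCF11 median was 0.21 less window medians. CEBPA, a myeloid factor, was at 0.75 with siPCF11 and 0.95 with siScram in the authors' deposited tables. GFI1, a repressor, was nearest the siScram median at -0.15, with 0.18 with siPCF11, and IKZF5 lowest with siScram at -0.71, with -0.17 with siPCF11, in the authors' deposited tables. Trophoblast factors, which share placental roles with GATA2 and GATA3, had medians of -0.17 over 8 genes with siPCF11 and 0.06 over 8 with siScram. Among them TFAP2C was at 0.01 with siPCF11 and 0.59 with siScram, CDX2 at -0.22 and -0.38, and TEAD3 at -0.04 and 0.05, in the authors' deposited tables.

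**Figure D4:**
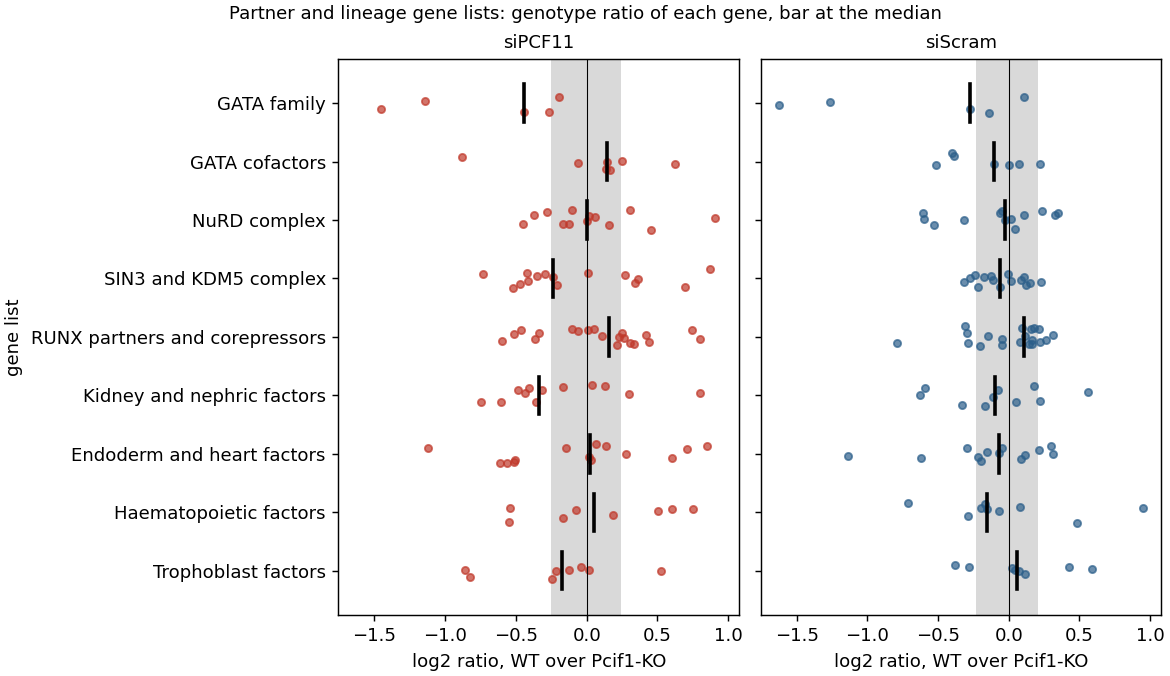
Log2 ratio of WT over Pcif1-KO (x axis) of each measured gene in 9 lists of GATA and RUNX relatives, partners and lineage factors, with siPCF11 on the left and siScram on the right. Black bars are list medians and the grey band the middle 50% of all genes. The GATA family holds GATA3 and GATA6 far left, and ISL1 is the leftmost point of the endoderm and heart list.

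Of 7 markers known for HEK293T, VIM, KRT8, KRT18, CDH2 and NEFL had ratios with both siRNAs, PAX2 had 1 with siPCF11 only and LHX1 had none. None of 9 blood, 6 fibroblast and 5 endothelial markers had a listed ratio. As the sources used here do not give the rule by which genes were listed, a missing ratio says nothing certain of a gene's level.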

How the data were processed

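Per the labels' protocols, HEK293T nuclear RNA was sequenced at mRNA 3′ ends. Tools named, with no role, in the submitters' processing notes are DESeq2 1.30.1, HTSeq 2.0.1, STAR 2.7.10a, cutadapt 3.7 and bcl2fastq 2.20, with the build hg38. The authors deposited 2 tables, of long and short genes, with 8 columns of log2 ratios of WT over Pcif1-KO. The sources used here give no rule for scaling, shrinkage, listing or classes, and no counts, errors or depths are in these tables.

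The 10 genes and all lists were chosen with earlier results of these data known. No test was made: each group had 1 library, and the genes were chosen with their ratios known. Symbols were joined by Ensembl ID (8792 of 8801), and RefSeq spans on GRCh38 by symbol (8725, 99.1%). A gene counted as past the fold beyond 1 on the log2 scale. Medians of the other genes in the same 10 Mb window, or of the chromosome where fewer than 15 others were measured, were subtracted as an alternative, as were medians of the chromosome, of all genes and of the gene's class. List medians were given for at least 5 measured genes, and the 4 GATA factors were summarized besides. Named were all 10 genes, the lowest, highest and median gene of each list with siScram, flanking genes, genes past the fold and the 3 nearest patterns. MED1, CBFA2T2, AKAP8L, UBE2Q2 and ZNF521 were named after their values were seen. Promoter entries are from RefSeq on GRCh38.p14 (6 of the 9 genes matched, not CBFB, GATA4 and RUNX1T1). The centring was checked on simulated data. Python 3.11.15, numpy 2.4.6, pandas 2.3.3 and matplotlib 3.10.9 were used.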

Additional observations from a re-analysis of the deposited data

How the results depend on the processing

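No paired analysis was possible because each group holds 1 replicate, so the groups share fewer than 2 replicate numbers. A fit over the 2 siRNAs as pairs would leave 1 residual degree of freedom, and it was not made because the genes were chosen with these ratios known. With siPCF11 the count of the 9 genes beyond 1 was 3 as deposited and 1 after window medians were subtracted, as GATA6 and RUNX1T1 then fell short of -1, while the count over all 8499 genes was 127 as deposited and 88 after it. With siScram the count was 4 as deposited and 3 or 4 under the alternatives that keep that threshold, where RUNX1T1 fell short of -1 after subtraction of the all-gene, window or class median. It was 5 at a threshold of 1.5-fold, which 631 of 7893 genes passed. The count for the difference between siRNAs was 1 throughout. Of 90 member ratios recomputed, 88 moved by less than 0.28, and the other 2 were RUNX3 with siPCF11, at 0.24 after both kinds of window centring. The 0.28 is a spread of 1 ratio derived from the difference between siRNAs, so it holds the siRNA effect too. Subtracted medians of all genes, of the class and of the chromosome were at most 0.19 in size for these genes. Only window medians could thus have moved a ratio by 0.28. No ratio beyond 1 changed sign.

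Of 104 list medians recomputed, 92 moved by less than 0.28 divided by the square root of the number of genes. After window centring with siPCF11, medians were 0.12 for NuRD, -0.13 for SIN3 and KDM5, 0.045 for RUNX partners, -0.24 for kidney, -0.069 for endoderm and heart, which turned its sign, 0.21 for haematopoietic and -0.27 for SOX factors. After window centring with siScram they were 0.13 for GATA cofactors, which turned its sign, -0.19 for SOX and -0.13 for KLF factors. After chromosome centring with siPCF11 they were 0.036 for GATA cofactors and -0.0198 for SIN3 and KDM5. The cause was not tested. The depth behind a ratio is unknown, so small ratios cannot be placed against counting error.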

Other observations

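Other families of developmental transcription factors were set beside the GATA and RUNX genes. ETS factors, frequent partners of RUNX and GATA factors at enhancers, had medians of -0.08 over 12 genes with siPCF11 and 0.13 over 11 with siScram. None of the ETS factors lay beyond 1, against backgrounds of 1.49% of all genes with siPCF11 and 0.912% with siScram. ETV5 was their highest gene, at 0.96 with siPCF11 and 0.86 with siScram, and ETV3 their lowest, at -0.86 and -0.37, in the authors' deposited tables, with ELF1 nearest the siScram median at -0.06 with siPCF11 and 0.13 with siScram.

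SOX factors had medians of -0.06 with siPCF11 and -0.02 with siScram over 9 genes, which were -0.27 and -0.19 less window medians. SOX12 and SOX8 were beyond 1 with siPCF11, at 1.69 and 1.002, against 0.47 and 0.59 with siScram in the authors' deposited tables. The background beyond 1 with siPCF11 was 1.49% of all genes. SOX18, on chromosome 20, was highest with siScram at 0.80, SOX13 was nearest the median at -0.02 and SOX3 lowest at -0.49 in the authors' deposited tables. KLF factors had medians of 0.0052 with siPCF11 and -0.22 with siScram over 11 genes, from KLF15 at -0.56 through KLF12 at -0.22 to KLF10 at 0.72 with siScram in the authors' deposited tables. FOX factors had medians of -0.07 over 18 genes with siPCF11 and 0.05 over 16 with siScram, with FOXO4 nearest the siScram median at 0.05 and FOXO1 highest with siScram at 0.42 in the authors' deposited tables.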
